A study of Mus musculus with 12 samples.

Results

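Trans-vaccenic acid (TVA), a long-chain fatty acid of ruminant meat and milk fat, and an siRNA against Creb1, the gene of the cAMP-responsive transcription factor CREB1, were each given alone to mouse CD8+ T cells, and the RNA of the 2 treated groups was compared. Of the 54532 genes listed for each library, the 11553 with a mean of at least 1 FPKM (reads scaled by gene length and library size) over the 6 libraries were tested. One group, siNTC + TVA, carried a non-targeting siRNA and received TVA for 24 h (genotype label WT). The other, siCreb1, carried the siRNA against Creb1 and received the solvent DMSO for 24 h (genotype label Creb1 KD). Each group had 3 libraries of the 12 in the series. The cells were primary CD8+ T cells from C57BL/6 mice, activated before the siRNA was delivered, so activation, siRNA delivery and the culture time were shared. The groups differ in siRNA and in treatment at once, so within these 6 libraries the part of each cannot be told apart. The other 2 groups, siNTC with DMSO and siCreb1 + TVA, are used below only as levels. Neither the labels nor the methods say whether the 3 libraries of a group came from separate mice or cultures, so p-values measure the spread between these libraries, which may be technical.

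CREB1 is phosphorylated downstream of cAMP and protein kinase A and binds the cAMP response element, whose full form reads TGACGTCA. In T cells it acts early after receptor stimulation and is known for driving cytokine, survival and cell cycle genes. Fatty acids reach transcription by other routes as well. PPAR receptors bind fatty acids and switch on genes of their oxidation, SREBP factors switch on genes of cholesterol and fatty acid synthesis and are restrained when the cell holds enough sterol or unsaturated fatty acid, and LXR receptors respond to oxysterols.

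Creb1 (ENSMUSG00000025958, chromosome 1, 64532645 to 64604548, GRCm38) checked the labels. Its level was 11.03, 11.97 and 12.42 FPKM in the siNTC + TVA libraries and 1.187, 1.289 and 1.774 FPKM in the siCreb1 libraries. The groups did not overlap, and the difference of log2(FPKM + 1) was 2.41 (SE 0.1, limma, Benjamini-Hochberg adjusted p = 0.0004526). An exact permutation test of the 3 libraries against 3, two-sided, gave p = 0.1, the smallest that this design allows. Recovered read totals lay between 16660234 and 22192484 per library, and the siCreb1 libraries were all deeper (20760297 or more) than the siNTC + TVA libraries (20263843 or fewer). CD8 T cell markers summed to between 1826 and 1838 FPKM in siNTC + TVA and between 1721 and 1746 FPKM in siCreb1 libraries, and Cd8b1, at 934 and 835 FPKM, was the 1 of 5 markers called. Markers of CD4 T cells, B cells, myeloid cells and NK cells summed to at most 11.9 FPKM in any of the 6 libraries with none of their tested members called, and dendritic and erythroid markers to at most 0.494 FPKM.

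Across the 11553 genes, 670 (5.8%) differed at an adjusted p under 0.05, of which 344 (2.98% of those tested) were higher in siNTC + TVA and 326 (2.82%) were higher in siCreb1. Differences given below are of log2(FPKM + 1), siNTC + TVA minus siCreb1, and understate the change of low genes, while fold values and values given as times are ratios of mean FPKM. The differences were small: the median absolute difference of the called genes was 0.23, and only 4 called genes were above 1 and 6 below −1. The libraries of the groups did not overlap for 3493 genes (30.2%), among them all 670 called ones. Called genes split 51.3% to siNTC + TVA as deposited, but 38.9% after quantile normalization and 20.6% after rescaling to TPM, which lowered the median difference of all genes from 0.0094 to −0.0337. No called gene changed direction under either. Genes called higher in siNTC + TVA had a median length of 3029 bases and those higher in siCreb1 5237 bases, against 3732 bases for all tested, and the part of length in the result was not tested. Of 209 lincRNA genes tested, 1 was called higher in siNTC + TVA and 16 in siCreb1 (8.13%, against 5.8% of all genes). Of 206 antisense genes 0 and 12 were called (5.83%, near the share of all genes). Whether reads were counted by strand is not given, so reads of antisense genes and their partners cannot be told apart here.

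**Figure D1:**
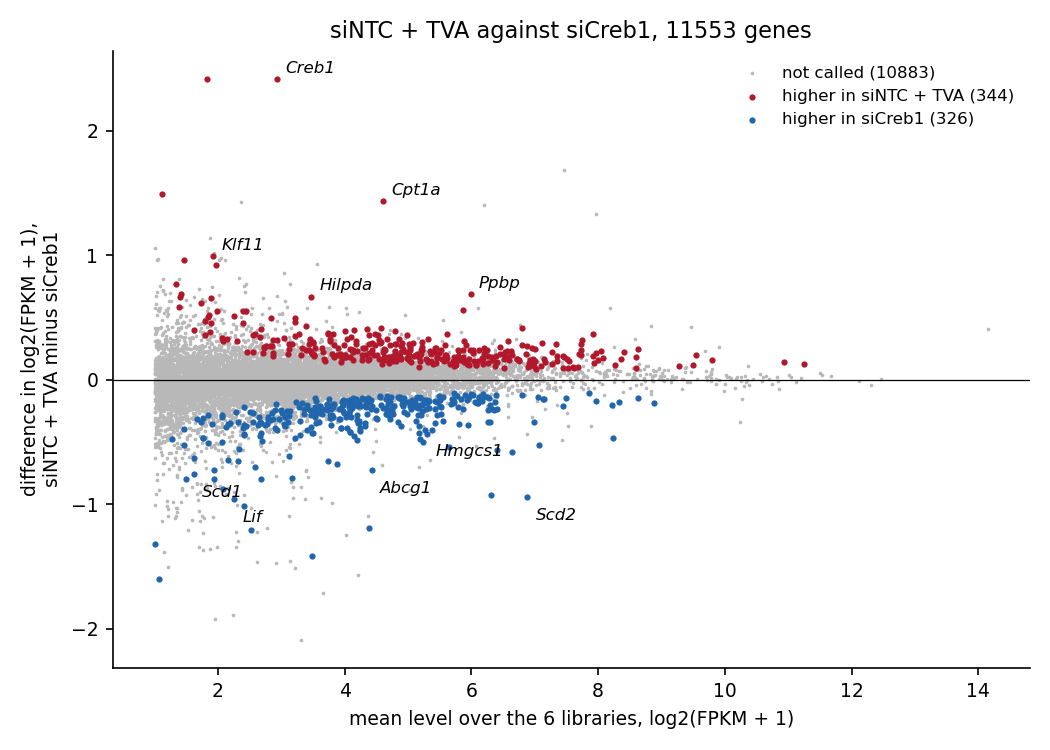
Difference of log2(FPKM + 1), siNTC + TVA minus siCreb1 (y axis), against the mean level over the 6 libraries as log2(FPKM + 1) (x axis) for 11553 genes, 1 point each; red points are the 344 genes called higher in siNTC + TVA and blue points the 326 called higher in siCreb1. Creb1 (2.41) and Cpt1a (1.43) lie far above the other labelled genes, and Scd2 (−0.94) and Lif (−0.96) lie lowest among them.

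Among called protein-coding genes, the widest difference after Creb1 was in Cpt1a, and it led a group of fatty acid genes that were higher with TVA. Cpt1a (chromosome 19, 3323301 to 3385732, GRCm38) encodes the carnitine palmitoyltransferase that commits long-chain fatty acids to entry into mitochondria. It stood at 34.68, 33.56 and 35.34 FPKM in the siNTC + TVA libraries and at 11.82, 11.63 and 13.02 FPKM in the siCreb1 libraries. The groups were 2.84-fold apart without overlap (difference 1.43, SE 0.047, limma adjusted p = 0.000142), and the call held in all 15 alternative fits. Of the 33 tested genes of fatty acid oxidation and PPAR targets, 5 were called higher in siNTC + TVA and 1 in siCreb1. That was 18.2% of the list, against 5.8% of all genes. A positive difference was found for 28 of the 33 (median 0.078, against 0.0094 over all genes). With 1 of the 6 libraries left out, 2 to 5 were called higher in siNTC + TVA, and 2 after rescaling to TPM.

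Hilpda, a lipid droplet protein that inhibits lipolysis, was at 11.38, 13.57 and 12.88 FPKM in siNTC + TVA and at 7.762, 7.383 and 7.505 FPKM in siCreb1 (difference 0.67, limma adjusted p = 0.006666). Slc25a20, the carnitine-acylcarnitine carrier of the inner mitochondrial membrane, averaged 9.84 ± 0.735 FPKM (SD, n = 3) against 6.71 ± 0.507 FPKM (SD, n = 3), a difference of 0.49. Acadvl and Acaa2, which take very long acyl chains into the oxidation cycle and split off acetyl units at its end, differed by 0.39 and 0.28. The acyl-CoA synthetase Acsl3, which works at the endoplasmic reticulum and lipid droplets, went the other way, with 5.42 ± 0.141 FPKM (SD, n = 3) in siNTC + TVA and 7.45 ± 0.858 FPKM (SD, n = 3) in siCreb1 (difference −0.39). Plin2, a lipid droplet coat protein and a textbook PPAR target, averaged 1.94 and 1.25 FPKM and was not called (difference 0.39, limma adjusted p = 0.08172), and neither was Cpt2, at 4.51 and 4.49 FPKM.

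In the other groups these genes ordered by TVA and not by the siRNA. Cpt1a was at 11.38, 11.72 and 12.05 FPKM in siNTC libraries with DMSO and at 33.67, 32.28 and 33.80 FPKM in siCreb1 + TVA libraries. On a scale of log2(FPKM + 1) where the siCreb1 mean is 0 and the siNTC + TVA mean is 1, the 6 called genes of the list had a median position of 0.123 in siNTC and of 0.833 in siCreb1 + TVA, and all 6 lay nearer to siNTC + TVA in the latter. These positions describe levels and were not tested. Klf11, a Krüppel-like repressor (4.05 and 1.55 FPKM, difference 0.99), and Rhob, a small GTPase of endosomes (4.14 and 1.72 FPKM, difference 0.92), were at 3.22 and 3.67 FPKM in siCreb1 + TVA and at 1.29 and 2.33 FPKM in siNTC.

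**Figure D2:**
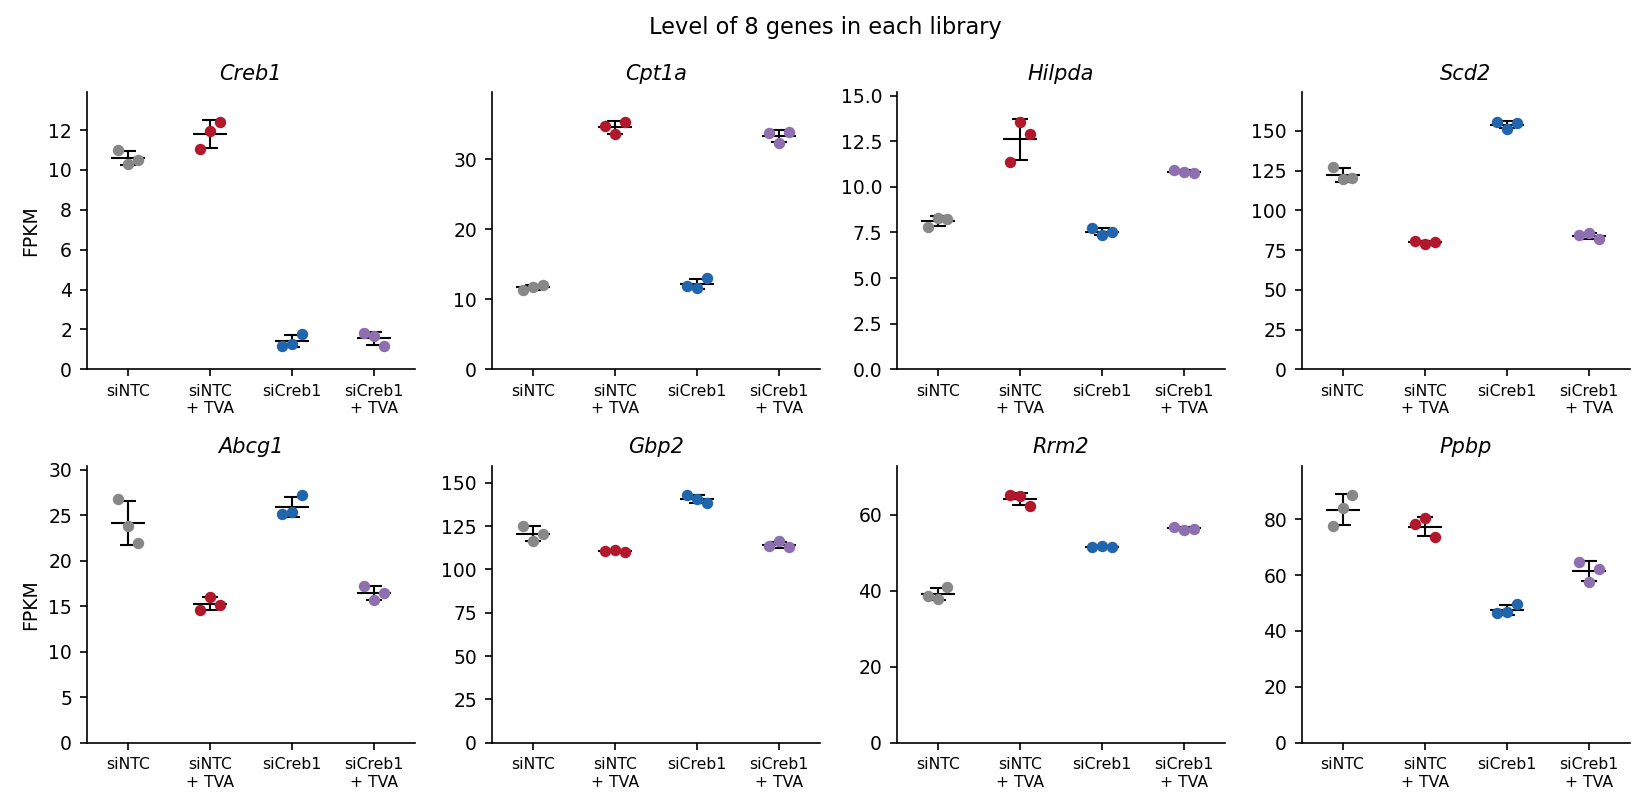
FPKM (y axes, each from 0) of 8 genes in every library of the 4 groups; points are libraries, and bars are the mean and SD of 3. Cpt1a and Hilpda are high in both TVA groups, Scd2 and Abcg1 are low in both, Creb1 and Ppbp are low in both siCreb1 groups, and Rrm2 is lowest in siNTC.

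Genes of cholesterol and fatty acid synthesis were the list with the most calls for its size, all of them higher in siCreb1. Of 38 tested SREBP target genes, 22 were called higher in siCreb1 and 0 in siNTC + TVA (57.9% of the list, against 5.8% of all genes), with a median difference of −0.24, and 35 of the 38 differences were negative. Scd2, a stearoyl-CoA desaturase that makes monounsaturated fatty acids (chromosome 19, 44293676 to 44306864, GRCm38), had the lowest adjusted p of all genes. It was at 80.44, 78.65 and 80.20 FPKM in the siNTC + TVA libraries and at 155.7, 151.4 and 154.6 FPKM in the siCreb1 libraries (difference −0.94, SE 0.021, limma adjusted p = 3.836e-05). The siCreb1 mean was 1.93-fold the siNTC + TVA mean and the groups did not overlap. Its low-expressed relative Scd1 averaged 1.28 and 2.86 FPKM (difference −0.76).

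The calls ran along the sterol pathway. Hmgcs1, which makes HMG-CoA, was at 32.86, 32.81 and 31.77 FPKM in siNTC + TVA and at 44.11, 43.17 and 45.28 FPKM in siCreb1 (difference −0.43, limma adjusted p = 0.002625), without overlap, and Mvk and Mvd, which carry mevalonate on, differed by −0.31 and −0.40. Idi1, Fdps and Fdft1, the isoprenoid steps to squalene, differed by −0.30, −0.53 and −0.28, and Sqle and Lss, which oxidise and close squalene, by −0.35 and −0.49. Cyp51, Msmo1, Nsdhl and Dhcr7 of the later sterol steps were called as well. Among the fatty acid enzymes, Fads2 (−0.37), Fasn (−0.28) and Acly (−0.12) were called, and so was Insig1 (−0.24), a sterol-regulated brake on SREBP. The factor Srebf2 itself was not called (difference −0.09, limma adjusted p = 0.1285), nor were its escort Scap (−0.06) and Insig2 (0.08).

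For this list the medians of the other groups split by treatment once more, with siNTC in between. Scd2 was at 127.5, 119.5 and 120.4 FPKM in siNTC and at 84.14, 85.63 and 81.67 FPKM in siCreb1 + TVA. Over the 22 called genes the median position was 0.365 in siNTC and 1.004 in siCreb1 + TVA, where all 22 lay nearer to siNTC + TVA. In siNTC 5 of the 22 lay nearer to siNTC + TVA. Not every gene had siNTC in between: its position was 1.069 for Fads2 and −0.193 for Insig1. Of the 10 LXR target genes tested 2 were called, both higher in siCreb1 (1 or 2 with any 1 library left out). Over all genes, 2.82% were called higher in siCreb1. Abcg1, a cholesterol exporter, was at 14.61, 16.04 and 15.17 FPKM against 25.15, 25.37 and 27.18 FPKM (difference −0.72, limma adjusted p = 0.002557), and averaged 24.2 FPKM in siNTC and 16.4 FPKM in siCreb1 + TVA. The other was Srebf1 (−0.23), which is also in the SREBP list. The SREBP count was 20 with quantile normalization and 21 after rescaling to TPM, and 12 to 15 when any 1 of the 6 libraries was left out.

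Genes of cell division were higher in siNTC + TVA, by small and even amounts. Of 63 tested DNA replication and E2F target genes, 16 were called higher in siNTC + TVA and 0 in siCreb1, 62 had a positive difference, and the median was 0.157. Of 62 tested G2/M, spindle and kinetochore genes, 13 and 0 were called, 61 were positive, and the median was 0.183. The called shares, 25.4% and 21.0%, compare with 2.98% of all genes in that direction. They depended on the scaling: after rescaling to TPM 3 and 1 were called, with medians of 0.127 and 0.147 and 58 and 59 positive members, and without any 1 of the 6 libraries 4 to 6 and 1 to 3 were called.

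Rrm2, the small subunit of ribonucleotide reductase, was at 65.15, 65.00 and 62.22 FPKM in siNTC + TVA and at 51.59, 51.77 and 51.51 FPKM in siCreb1 (difference 0.31, limma adjusted p = 0.005177). Pcna, the sliding clamp of the replication fork, averaged 138 and 116 FPKM (difference 0.25). The histone chaperone Asf1b differed by 0.33, the clamp loader subunit Rfc4 by 0.32, the atypical E2F repressor E2f8 by 0.31 and the licensing factor Cdt1 by 0.28. Among mitotic genes, the condensin subunit Smc2 (19.8 FPKM in siCreb1, difference 0.32), the spindle protein Nusap1 (0.29), cyclin A2 (Ccna2, 0.27), the checkpoint kinase Bub1 (0.26), Cdk1 (0.26) and the spindle motor Kif11 (0.24) were called. Mki67, which encodes the proliferation marker Ki-67, averaged 44.4 and 40.5 FPKM (difference 0.13, limma adjusted p = 0.04584).

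For all but 1 of these 29 called genes, siNTC with DMSO was not between the groups but below both. Rrm2 was at 38.61, 37.94 and 41.04 FPKM in siNTC and at 56.76, 56.10 and 56.33 FPKM in siCreb1 + TVA, so siNTC was the lowest group, siCreb1 and siCreb1 + TVA were in the middle and siNTC + TVA was the highest. The median position of siNTC was −1.11 for the 16 replication genes and −1.11 for the 13 mitotic genes, none of which lay nearer to siNTC + TVA. The median position of siCreb1 + TVA was 0.417 and 0.204. Of 18 tested G1 cyclins and CDK inhibitors, 15 differences were positive (median 0.07). From this list 2 were called higher in siNTC + TVA and 1 in siCreb1 (16.7%, against 5.8% of all genes). With any 1 library left out 0 or 1 and 0 or 1 were called, and after rescaling to TPM 0 and 1. Cdkn2c and Cdkn2d, which encode p18 and p19 inhibitors of Cdk4 and Cdk6, were called higher in siNTC + TVA (0.19 and 0.12), and Cdk6 was called higher in siCreb1 (−0.27).

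**Figure D3:**
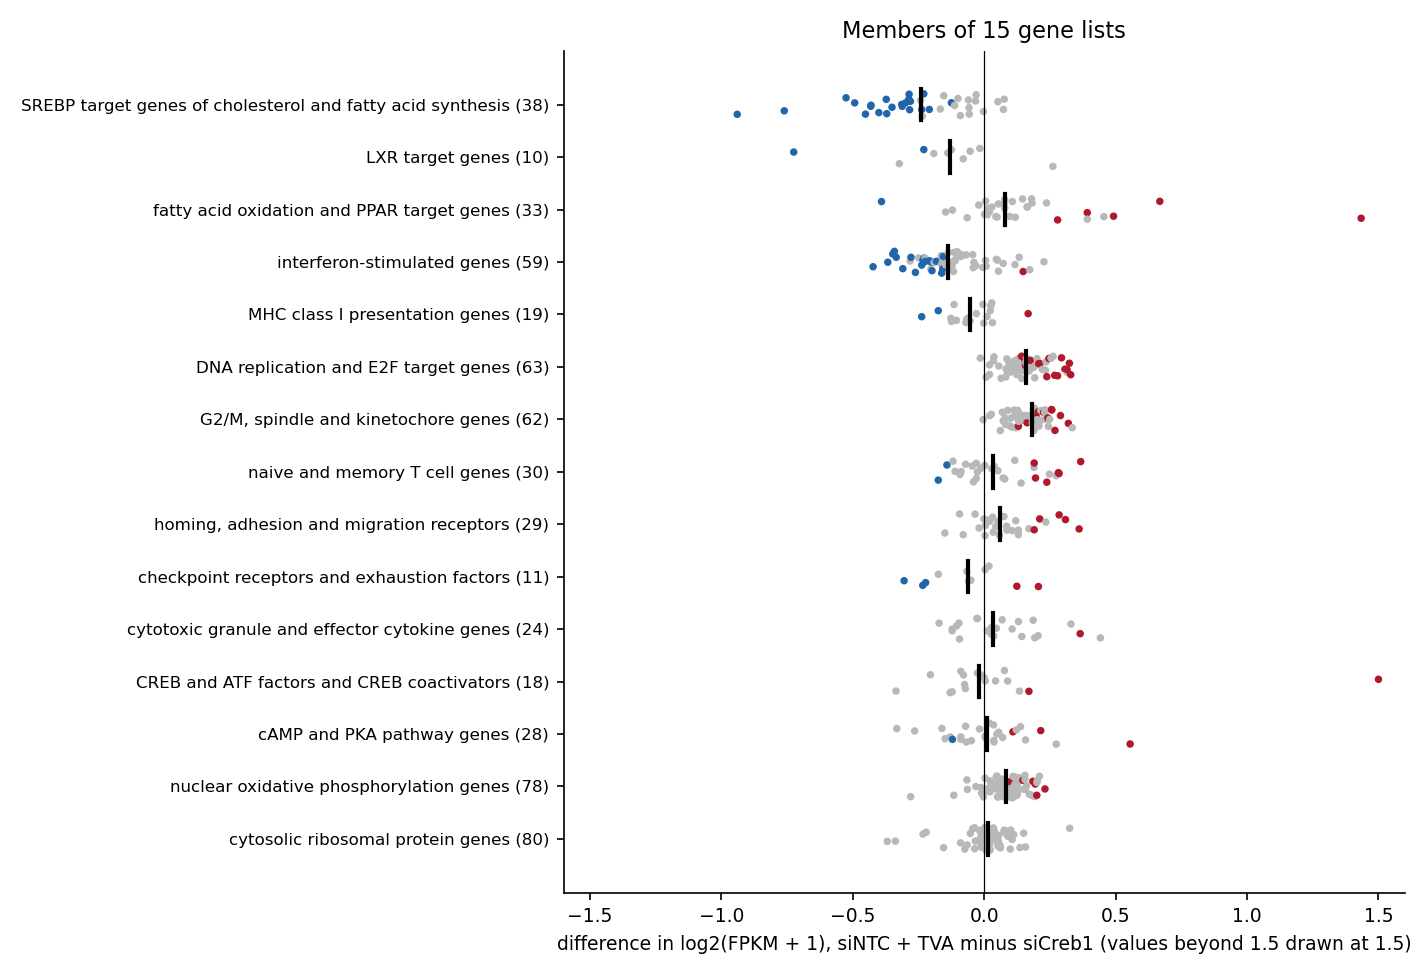
Differences of log2(FPKM + 1), siNTC + TVA minus siCreb1 (x axis), of the tested members of 15 gene lists (rows, number tested in parentheses); red points were called higher in siNTC + TVA, blue points higher in siCreb1, grey points were not called, black bars are medians, and Creb1 is drawn at the edge. SREBP target and interferon-stimulated genes lie mostly below 0, and both cell division lists lie almost wholly above 0.

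The element that CREB1 binds stood in a promoter of 13 of 277 genes called higher in siNTC + TVA that had one listed (4.7%). It stood in 5 of 229 called higher in siCreb1 (2.2%), and in 3.9% of all tested genes with a promoter. These shares cannot be compared, as set out below, and 2 of the promoters are shown. The 2 are of Mcm5, a subunit of the replicative helicase, and Btg2, an antiproliferative gene induced early after stimulation. Each held a full TGACGTCA in a window from 250 bases before to 50 bases after a RefSeq start site (GRCm38.p6). These 2 came from a narrower search, on either strand, of the named genes and list members called in either direction. They were its only hits, so it found no gene higher in siCreb1. Unlike the counts above, that search did not cover every chromosome, so other members may hold the element. The element reads the same on both strands. In Mcm5 (chr8:75109259-75109558, plus strand) it begins 99 bases before the start site, and in Btg2 (chr1:134079106-134079405, minus strand) 166 bases before it. They are printed 5′ to 3′ with the element in capitals.
Mcm5: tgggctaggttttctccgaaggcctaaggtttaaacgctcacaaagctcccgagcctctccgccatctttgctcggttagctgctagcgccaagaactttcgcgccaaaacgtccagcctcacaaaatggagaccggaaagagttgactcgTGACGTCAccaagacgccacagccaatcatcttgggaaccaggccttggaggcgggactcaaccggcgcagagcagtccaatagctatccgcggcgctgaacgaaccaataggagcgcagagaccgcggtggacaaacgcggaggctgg
Btg2: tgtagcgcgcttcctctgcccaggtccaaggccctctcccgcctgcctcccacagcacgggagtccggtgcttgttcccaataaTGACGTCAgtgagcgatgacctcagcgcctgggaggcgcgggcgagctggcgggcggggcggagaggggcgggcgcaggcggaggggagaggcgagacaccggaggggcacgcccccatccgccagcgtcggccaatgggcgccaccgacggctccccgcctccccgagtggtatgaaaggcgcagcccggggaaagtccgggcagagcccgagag

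Mcm5 averaged 37.0 and 31.9 FPKM (difference 0.21, limma adjusted p = 0.02843). It was lowest in siNTC, at 28.12, 24.75 and 24.31 FPKM, and was at 33.56, 34.53 and 34.15 FPKM in siCreb1 + TVA, so its level did not order by the siRNA. Btg2 was at 100.6, 93.58 and 97.59 FPKM in siNTC + TVA and at 84.55, 83.80 and 84.45 FPKM in siCreb1 (difference 0.20, limma adjusted p = 0.01964), without overlap, and averaged 103.7 FPKM in siNTC and 84.8 FPKM in siCreb1 + TVA. The element was held by 588 of 32851 RefSeq promoters (1.8%), and by a promoter of 313 of the 8111 tested genes that had one in the table (3.9%). The called genes holding it were 13 of 277 with a promoter (4.7%) among those higher in siNTC + TVA and 5 of 229 (2.2%) among those higher in siCreb1. A comparison of these shares is void, because promoter coverage was incomplete and uneven. A promoter was available for 80.5% of the genes higher in siNTC + TVA. The share was 70.2% for the genes higher in siCreb1 and 70.2% for all tested. A match is only a run of letters and does not show binding.

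Apart from Creb1, 1 CREB family gene and 4 cAMP pathway genes were called. Of 18 tested CREB and ATF factors and coactivators, 2 were called (11.1%, against 5.8% of all genes), and the median was −0.02. These were Atf4 and Creb1, the siRNA target itself, both higher in siNTC + TVA. With any 1 of the 6 libraries left out, and after rescaling to TPM, only Creb1 of this list was called. Atf4, the factor of the integrated stress response, was at 48.19, 49.17 and 46.53 FPKM against 41.72, 43.06 and 42.76 FPKM (difference 0.17, limma adjusted p = 0.02926). The CREB relatives Atf1 (23.3 and 22.6 FPKM) and Crem (1.27 and 1.86 FPKM) were not called (limma adjusted p = 0.584 and 0.09956). Of 28 tested cAMP and PKA genes, 3 were called higher in siNTC + TVA and 1 in siCreb1 (14.3%, against 5.8% of all genes). With any 1 library left out 0 to 2 and 0 were called, and after rescaling to TPM 1 and 0. Their median of 0.012 turned to −0.031 after rescaling to TPM and to −0.002 without siNTC + TVA replicate 3.

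Prkaca, the main catalytic subunit of protein kinase A, was at 21.73, 21.43 and 22.07 FPKM in siNTC + TVA and at 18.47, 18.78 and 18.53 FPKM in siCreb1 (difference 0.22, limma adjusted p = 0.01339), and averaged 20.1 FPKM in siNTC and 19.9 FPKM in siCreb1 + TVA. Prkacb, the other catalytic subunit, was within its spread, with a mean of 46.7 ± 1.01 FPKM (SD, n = 3) and 46.6 ± 1.61 FPKM (SD, n = 3). Prkar2b, a regulatory subunit (5.27 and 3.27 FPKM, difference 0.56), and the inhibitory G protein Gnai2 (0.11) were higher in siNTC + TVA, and the anchoring protein Akap8 was higher in siCreb1 (−0.12). Of 30 immediate early and cAMP-responsive genes tested, 2 were called (6.7%, near the 5.8% of all genes), both higher in siNTC + TVA. They were the MAP kinase phosphatase Dusp5 (14.0 and 11.1 FPKM, difference 0.31) and Btg2. With any 1 library left out 0 or 1 were called, and 0 after rescaling to TPM.

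Interferon-stimulated genes were mostly higher in siCreb1. Of 59 tested, 21 were called higher in siCreb1 and 1, Slfn1, in siNTC + TVA (37.3%, against 5.8% of all genes), 48 differences were negative, and the median was −0.14. Without any 1 of the 6 libraries 8 to 10 were called higher in siCreb1 and 0 in siNTC + TVA. Stat2, a subunit of the interferon-activated ISGF3 complex, was at 13.45, 13.71 and 13.17 FPKM in siNTC + TVA and at 18.89, 17.87 and 18.35 FPKM in siCreb1 (difference −0.42, limma adjusted p = 0.005177). Guanylate-binding proteins, GTPases of cell-autonomous defence, were called higher in siCreb1 for 8 of 10 tested, a count made after the values were seen. Gbp2 was at 110.8, 111.2 and 109.9 FPKM against 142.8, 140.6 and 138.2 FPKM (difference −0.34), Gbp4 differed by −0.37 and Gbp5 by −0.31. Gbp3 (difference 0.0048) and Gbp11 (−0.39, limma adjusted p = 0.05322) were not called. Their reads may be shared between near-identical copies, so the split among members is uncertain. The GTPase Iigp1 (−0.35), the apoptosis factor Xaf1 (−0.34) and the factor Irf1 (76.6 and 90.3 FPKM, difference −0.23) were called too.

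In the other groups these genes took no single side. The median position of the 22 called members was 0.487 in siNTC and 0.539 in siCreb1 + TVA, and in each 11 of 22 lay nearer to siNTC + TVA. Gbp2 was at 125.1, 116.5 and 120.4 FPKM in siNTC and at 113.5, 116.1 and 112.9 FPKM in siCreb1 + TVA, so siCreb1 with DMSO stood above the other groups. Of 19 MHC class I presentation genes, 1 was called higher in siNTC + TVA and 2 in siCreb1 (15.8%, against 5.8% of all genes). With any 1 library left out 0 or 1 and 1 or 2 were called, and after rescaling to TPM 0 and 2. Nlrc5, the transactivator of MHC class I genes and also an interferon list member (73.0 and 86.3 FPKM, difference −0.24), was higher in siCreb1. So was the class Ib gene H2-Q4 (−0.17), while the related H2-Q6 (0.17) was higher in siNTC + TVA.

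Receptors that guide T cell traffic were higher in siNTC + TVA where called. Of 29 tested homing, adhesion and migration receptors, 5 were called in that direction (17.2%, against 2.98% of all genes) and 0 in the other, with a median of 0.058. With any 1 library left out 3 or 4 were called, and after rescaling to TPM 3, with a median of 0.013. S1pr1, the receptor for lymph node exit, was at 175.2, 175.1 and 177.3 FPKM against 143.9, 144.7 and 143.9 FPKM (difference 0.28, limma adjusted p = 0.002124). Its relative S1pr4 (0.31), the chemokine receptors Cxcr4 (0.36) and Ccr7 (0.19) and the basigin relative Emb (0.21) followed. Klf2, the factor that maintains S1pr1 in resting T cells, was at 291.8, 257.7 and 263.0 FPKM against 211.7, 202.7 and 214.1 FPKM (difference 0.37, limma adjusted p = 0.01691).

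Of 30 naive and memory T cell genes, which share Klf2, S1pr1, Ccr7 and Il7r with other lists, 6 were called higher in siNTC + TVA and 2, Myb and Bcl2, in siCreb1 (26.7%, against 5.8% of all genes). With any 1 library left out 2 or 3 and 0 were called. After rescaling to TPM 1 and 0 were called and the median of 0.033 turned to −0.012. In the other groups the called homing receptors ordered by the siRNA: S1pr1 was at 199.9, 195.8 and 196.9 FPKM in siNTC and at 148.4, 148.9 and 152.5 FPKM in siCreb1 + TVA, and the median positions of the homing receptors were 1.338 in siNTC and 0.25 in siCreb1 + TVA.

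Of 24 tested cytotoxic granule and effector cytokine genes, 1 was called (4.2%, near the 5.8% of all genes), and 0 with any 1 library left out. It was the pore-forming Prf1, at 9.612, 11.12 and 9.227 FPKM in siNTC + TVA and 7.423, 7.81 and 7.30 FPKM in siCreb1 (difference 0.36, limma adjusted p = 0.03747). Gzmb was at 89.9 and 97.9 FPKM (limma adjusted p = 0.1147) and Tnf at 5.23 ± 0.085 and 5.09 ± 0.44 FPKM (SD, n = 3 each). Of 11 tested checkpoint receptors and exhaustion factors, Ctla4 (0.21) and Vsir (0.12) were called higher in siNTC + TVA, and Tox (2.05 and 2.77 FPKM, difference −0.30), Btla (−0.22) and Cd274 (−0.23) were called higher in siCreb1 (45.5%, against 5.8% of all genes), while Lag3 was at 4.36 and 4.35 FPKM. None of the 5 was called by limma with any 1 of the 6 libraries left out, and after rescaling to TPM 0 and 1 of the list were called. Another 8 members, among them Pdcd1, Havcr2, Entpd1 and Tox2, averaged under 1 FPKM and were not tested. The cytokine Lif had the most negative difference among protein-coding genes called (−0.96, limma adjusted p = 0.007276), with 2.102, 2.625 and 2.034 FPKM against 4.783, 5.287 and 5.844 FPKM, and averaged 2.82 FPKM in siNTC and 2.69 FPKM in siCreb1 + TVA.

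The genes that the study followed up as downstream of TVA and CREB were not called in this comparison. The study chose them from genes changed only in siNTC + TVA against the 3 other groups. It tested them by knockdown in cell assays, which these RNA levels do not address. Tbx21, which encodes T-bet, was at 17.1 ± 0.854 and 16.8 ± 2.15 FPKM, Ilf2 at 7.10 ± 0.298 and 6.78 ± 0.495 FPKM, Foxo4 at 11.4 ± 0.556 and 12.2 ± 1.07 FPKM and Bcl6 at 1.16 ± 0.0917 and 1.33 ± 0.0445 FPKM (SD, n = 3 each). Their limma adjusted p was 0.8457, 0.5975, 0.4883 and 0.4874. Batf, which the study named from a TVA experiment without siRNA, was at 17.78, 17.44 and 18.88 FPKM against 16.02, 17.35 and 15.64 FPKM (limma adjusted p = 0.1583). Il18 and Ebi3 fell below the filter: Il18 held 4, 1 and 7 reads in siNTC + TVA and 0, 2 and 0 reads in siCreb1, and Ebi3 21, 14 and 9 reads against 6, 9 and 10 reads, too few to show a difference at this depth.

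Several of the genes highest over siCreb1 are known from platelets. Ppbp and Pf4, chemokines of platelet granules, were at 78.20, 80.24 and 73.49 FPKM and at 66.27, 68.77 and 71.66 FPKM in siNTC + TVA. In siCreb1 they were at 46.37, 46.85 and 49.62 FPKM and at 45.44, 50.15 and 43.98 FPKM (differences 0.69 and 0.56). Slc6a4, the serotonin transporter, and Tmem40 differed by 0.67 and 0.77. A list of 23 platelet genes was written after these values were seen and is therefore without a test of its own. Among its 19 tested members, 8 were called higher in siNTC + TVA (3 or 4 with any 1 library left out) and 0 in siCreb1. Over all genes, 2.98% were called higher in siNTC + TVA. The mean was higher in siNTC + TVA for 22 of the 23, while Gp1bb was at 0 in all 6 libraries.

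The summed level of the platelet list was 257.8, 263.6 and 259.7 FPKM in siNTC + TVA and 178.9, 187.7 and 181.6 FPKM in siCreb1, so the siCreb1 mean was 0.702 times the other. It was 277.7 FPKM in siNTC and 209 FPKM in siCreb1 + TVA, so both siCreb1 groups lay below both siNTC groups. Fewer cells of a type and less RNA per cell cannot be told apart in bulk RNA. Prkar2b, which platelets also express, had the same order of groups, with 5.30 FPKM in siNTC and 3.95 FPKM in siCreb1 + TVA. The part of platelet RNA in this or any other called gene was not tested.

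**Figure D4:**
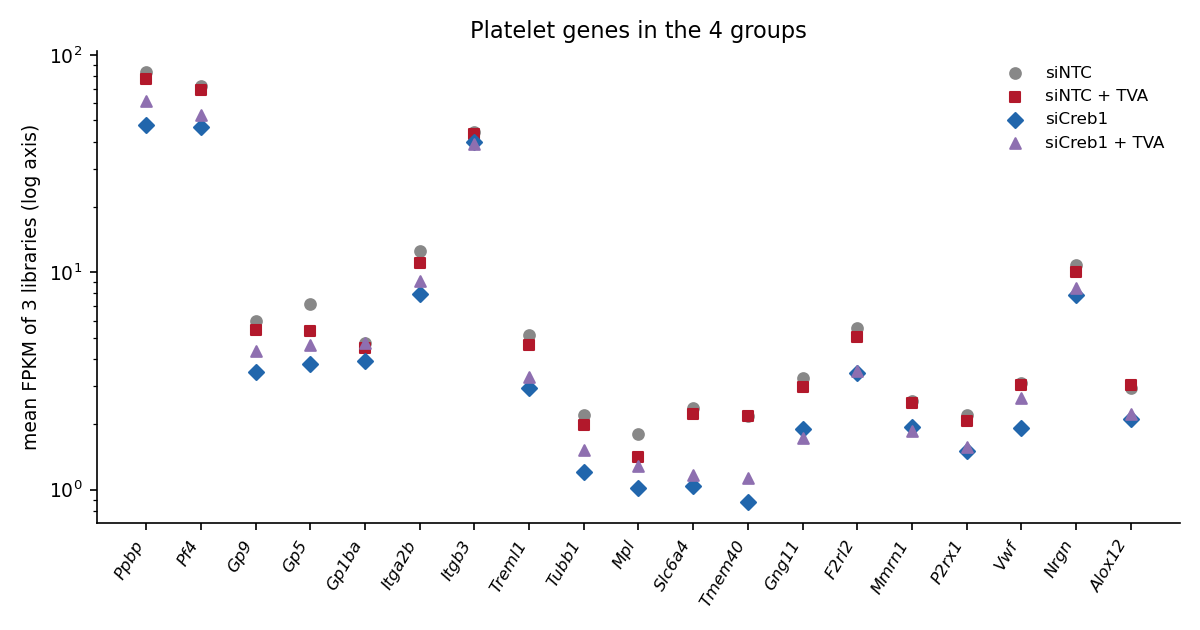
Mean FPKM of 3 libraries (y axis, log scale) of the 19 tested platelet genes in the 4 groups (symbols). All 19 have a higher mean in siNTC + TVA than in siCreb1.

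The remaining lists held small or mixed differences. Of 78 nuclear oxidative phosphorylation genes 6 were called higher in siNTC + TVA and 0 in siCreb1, with a median of 0.082. That was 7.7% of the list, against 5.8% of all genes. Cox6a1 was at 226 and 196 FPKM and Ndufa4 at 59.5 and 50.5 FPKM. After rescaling to TPM 0 were called, and 0 to 2 with any 1 library left out. None of the 80 cytosolic ribosomal protein, 13 mitochondrially encoded or 26 histone genes tested was called by limma, and the first 2 of these lists had medians of 0.015 and 0.005 that turned negative after rescaling to TPM (and, for the first, after quantile normalization). Of 52 MYC and ribosome biogenesis genes, 4 were called higher in siCreb1 and 0 in siNTC + TVA (7.7%, against 5.8% of all genes). With any 1 library left out 0 or 1 and 0 were called, and after rescaling to TPM 1 and 0. The widest of the 4 differences was in the RNA polymerase I subunit Polr1b (−0.25). Hsp90aa1, a cytosolic chaperone, was at 88.5 and 77.4 FPKM (difference 0.19), Txn1, which encodes thioredoxin, at 113 and 101 FPKM (0.15), and the glucose transporter Slc2a3 at 10.3 and 12.7 FPKM (−0.28).

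Taking all 670 called genes, the combined group lay nearer to siCreb1 than to siNTC + TVA. The median position of siCreb1 + TVA was 0.188 (0.165 to 0.197 in its 3 libraries), and 537 of the 670 genes (80.1%) were nearer to siCreb1. The median position of siNTC was 0.677, with 448 genes nearer to siNTC + TVA. The genes were chosen for the gap between the reference groups, so other groups tend to fall between them, and these positions are a description. The lipid genes stood apart from this order, with all 22 SREBP and all 6 oxidation genes nearer to siNTC + TVA in the combined group.

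**Figure D5:**
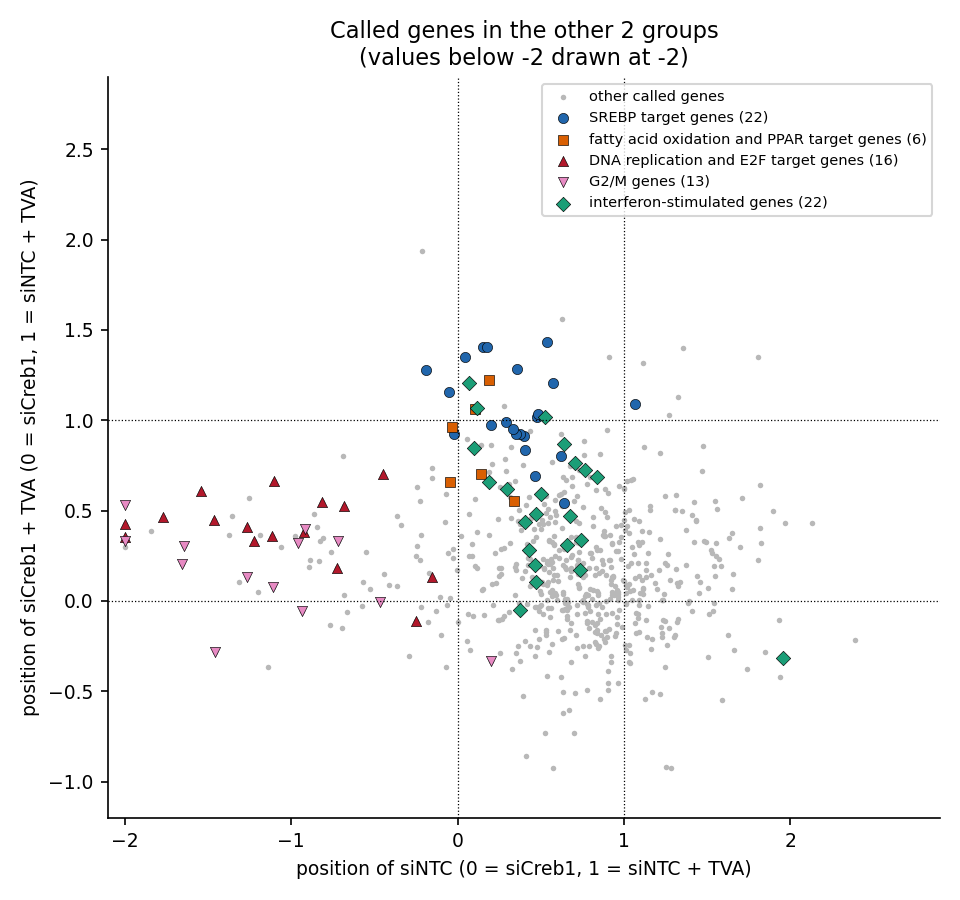
Position of siNTC with DMSO (x axis) and of siCreb1 + TVA (y axis) for the 670 called genes on a scale of log2(FPKM + 1) with the siCreb1 mean at 0 and the siNTC + TVA mean at 1 (dotted lines); points past the left end are drawn at its edge. SREBP and oxidation genes lie from 0.54 (Dhcr7) to 1.43 (Fdft1) on the y axis. The replication and G2/M genes lie left of 0 on the x axis apart from 1 gene. Most other called genes lie nearer to 0 than to 1 on the y axis.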

How the data were processed

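RNA libraries were made with the SMARTER mRNA-Seq kit. The authors deposited FPKM values of 54532 genes per library; the submitters' processing notes name the builds GRCm38 and mm10, and the aligner, counter, strand setting and normalization are not given in the sources used here. FPKM times gene length gave whole reads for at least 99.995% of values above 0 (tolerance 0.01 reads plus 1e-06 of the value). Genes averaging 1 FPKM or more in the 6 libraries compared (11553) entered limma 3.58.1 as log2(FPKM + 1), pseudocount 1 (mean-variance trend, R 4.3.3), with Benjamini-Hochberg adjustment over all of them and a threshold of 0.05. Groups came from the sample titles. The fit was tested on simulated data. Alternatives were another pseudocount, filter, scaling, variance model and set of libraries, a replicate block, limma-voom and leaving out each library. Replicate pairs differed by 3.75 to 5.74 times counting error, so none is 1 library deposited more than once. Deviations of same-numbered libraries correlated by −0.056 to 0.029, so the numbers were not taken as pairs.

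Named were Creb1, genes the study followed up, the 15 called protein-coding genes with the largest difference in each direction, and up to 6 called members of each of 35 lists, with some uncalled members as values. The members and lists were chosen with earlier results of these data known. The platelet list was chosen once the values were known. In 27 cases a gene symbol that a spreadsheet had turned into a date was restored through its Ensembl identifier. Figures used matplotlib 3.10.9. Promoters are RefSeq's (GRCm38.p6). Some called list members are not reported here.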

Additional observations from a re-analysis of the deposited data

How the results depend on the processing

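The number of called genes depended on the fit. No gene called in the reported fit changed sign in any of 15 alternatives, but most of these could not turn a sign. All 670 called genes had groups without overlap, which fixes the sign with another pseudocount or a library left out. The other filters, the block, the fit without trend and the fit of all 12 libraries keep the same group means. Only quantile normalization, rescaling to TPM and limma-voom could have changed a sign. Against 670 (344 higher in siNTC + TVA and 326 in siCreb1), the count was 266 (121 and 145) with no filter on low values, 277 (57 and 220) after rescaling to TPM, 1158 (604 and 554) with all 12 libraries in the fit, 253 (107 and 146) without the mean-variance trend and 1550 (750 and 800) with limma-voom on the recovered reads. After quantile normalization 217 were higher in siNTC + TVA. Leaving out each library in turn gave 113 to 184 called genes, 51 to 89 higher in siNTC + TVA and 62 to 100 in siCreb1, with fewer samples in the fit. The lowest, 113, was without siCreb1 replicate 3. With the replicate number as a block, which takes up residual degrees of freedom, 4 genes remained called (2 and 2), 0 of them in the cell division lists and 1 among the SREBP genes. A pseudocount of 0.1 gave 677 and a minimum of 5 FPKM gave 811. Creb1 was called in all 15, with differences from 2.34 to 3.07. Among uncalled genes, Tbx21 turned to −0.007 after rescaling to TPM and lay between −0.062 and 0.113 over all alternatives. Tnf turned to −0.002 with TPM (−0.025 to 0.072). Prkacb turned to −0.025 with quantile normalization, −0.043 with TPM and −0.002 with limma-voom (−0.043 to 0.031), and between −0.014 and −0.01 without 3 of the libraries. Lag3 turned to −0.039 with TPM and −0.007 with limma-voom, and lay between −0.027 and 0.058 when each library was left out. The cause of these shifts was not tested. FPKM are relative to the library, so a change in total RNA per cell does not show.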
